A study of Mus musculus with 6 samples.

Results

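Purinergic signalling genes were followed in mouse macrophages that had been given polymer nanoparticles. The set held 10 genes, P2rx4, P2rx7, P2ry2, P2ry6, P2ry12, P2ry13, P2ry14, Adora2b, Entpd1 and Nt5e, taken as the rows of the deposited gene table that carried these symbols, and they were 10 of 55487 gene rows. All 10 passed the filter on low counts, each with at least 0.171 CPM (counts scaled to the library size) in all 6 libraries.

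Polyadenylated RNA was sequenced from 6 samples of bone-marrow-derived macrophages, 3 given nanoparticles (NP) and 3 given PBS. Every sample came from WT female Balb/c mice aged 6 to 12 weeks, and the marrow cells had grown for 8 days with 20% L929 conditioned medium, a source of macrophage growth factor, before IL-4 and IL-13, each at 10 ng/mL, were added for 24 hours, a treatment called M2 polarization. NP samples then had 200 µg/mL of nanoparticles for 24 hours and were rinsed. PBS samples carry a PBS treatment label for the same 24 hours. The series title names the polymer as poly(lactide-co-glycolide), and the word PEMA in the NP samples' treatment label has no explanation there. The labels do not tie samples to separate mice or cultures, so the p-values rest on differences between these 6 samples that may be technical.

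Cells release ATP and other nucleotides when they are stressed, damaged or stimulated, and macrophages read them with P2X receptors, which are ATP-gated ion channels, and P2Y receptors, which are G protein-coupled. At the cell surface CD39, encoded by Entpd1, removes phosphates from ATP and ADP to leave AMP, and CD73, encoded by Nt5e, turns AMP into adenosine. Adenosine then acts on its own G protein-coupled receptors, which in macrophages are known for dampening inflammatory responses.

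Of the 10 genes, 9 passed the test for a difference. P2ry12, P2ry13 and P2ry14, which lie side by side on chromosome 3, fell in NP macrophages relative to PBS macrophages, with log2 fold changes of -1.90, -1.53 and -0.85. P2ry6, Adora2b, Nt5e and P2rx7 also fell, P2ry2 rose by 0.46 and P2rx4 rose by 0.12. Entpd1 did not pass. In all, 2 of the 10 were higher and 7 lower, and 9 had NP and PBS values that did not overlap. Across all 14478 genes tested, 41.2% passed (limma voom, Benjamini-Hochberg adjusted p under 0.05), 19.8% were higher and 21.4% lower in NP, and 53.3% had no overlap between the groups. The median log2 fold change was -0.48 over the 10 genes and -0.004 over all genes tested, and the median size of the change among called genes was 0.28.

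**Figure D1:**
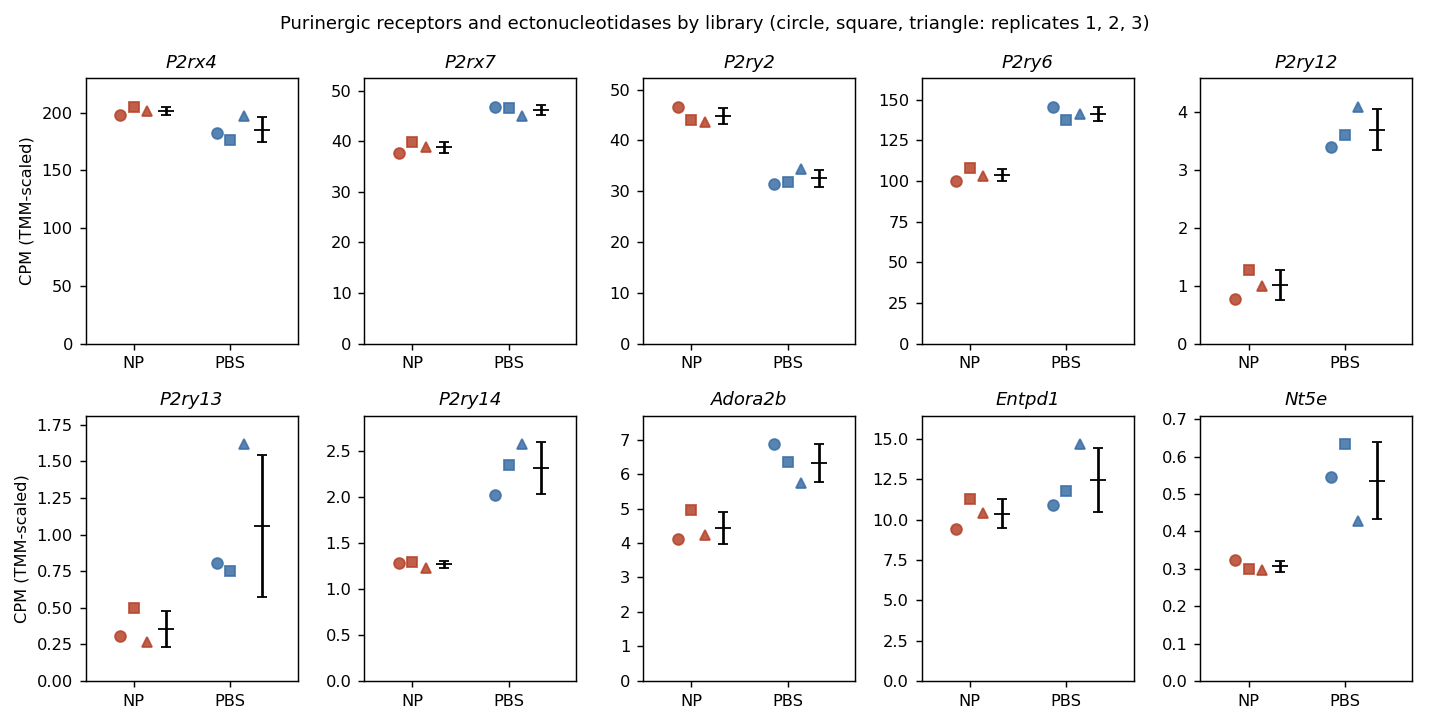
CPM, scaled by trimmed-mean factors, of the 10 purinergic genes in each library, with NP libraries in red on the left and PBS libraries in blue on the right of each panel. Circles, squares and triangles are replicates 1, 2 and 3, and the black bars beside them are the mean ± SD (n = 3). P2ry2 and P2rx4 lie higher in NP, Entpd1 overlaps, and the other 7 genes lie lower in NP.

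The libraries held 41974957 to 69450411 counts, so that 3 counts came to 0.0432 to 0.0715 CPM, and the shallowest NP library held more counts than the deepest PBS library. The first principal component took 69.9% of the variance and separated the NP from the PBS libraries. PBS 2 and PBS 3 stood apart in olfactory and vomeronasal receptor RNA, at 138 and 153 CPM, against 9.70 to 11.9 CPM in the NP libraries and 12.5 CPM in PBS 1. All 7 macrophage markers were detected, and 1 was higher and 5 were lower in NP, where 19.8% of all genes tested were higher and 21.4% lower, while their summed level was 9230 to 10300 CPM in NP, against 11700 to 12100 CPM in PBS. The 7 markers of alternative activation summed to 851 to 985 CPM in NP and 1810 to 2100 CPM in PBS, and 5 of them were lower, against the same 21.4%. All 5 mast cell and basophil markers were at 0, as were Ly6g and Camp of 6 neutrophil markers and Ncr1 among the lymphocyte markers. Summed neutrophil markers ran from 0.181 to 0.202 CPM in NP and from 0.0715 to 0.249 CPM in PBS. Summed lymphocyte markers ran from 0.0288 to 0.0983 CPM in NP and from 0.0711 to 1.81 CPM in PBS, and summed platelet markers from 1.20 to 1.37 CPM in NP and from 0.979 to 1.22 CPM in PBS. Summed dendritic cell markers ran from 2.62 to 3.11 CPM in NP and from 1.72 to 4.05 CPM in PBS. Summed fibroblast and stroma markers ran from 0.857 to 1.25 CPM in NP and from 0.658 to 1.52 CPM in PBS. In these lists Ccr7 had 0.397 to 0.546 CPM in NP and 0 to 0.0195 CPM in PBS. Pdgfra had 0.199 to 0.364 CPM in NP and 0.0527 to 0.117 CPM in PBS. All PBS values of Ccr7 and Pdgfra lay below the filter of 0.171 CPM. Both genes were tested only because of their NP libraries, so their tests are not given. The 4 endothelial markers summed to 19.2 to 20.9 CPM in NP and 19.4 to 20.1 CPM in PBS. Of these, 1 was higher and 2 lower in NP, against 19.8% and 21.4% of all genes tested. Pecam1, counted as lower, had 0.0992 to 0.182 CPM in NP and 0.292 to 0.539 CPM in PBS. Its NP 1 and NP 3 values lay below the filter, so it was tested because of its PBS libraries, which favours a call. The part of these markers in the results was not tested. In bulk RNA, fewer cells of a type and less RNA per cell cannot be told apart.

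The levels of the 10 genes were compared per kilobase of exon, since a longer transcript gives more fragments. The length used was that of all annotated exons of a gene joined, which can exceed that of the transcripts present. P2ry6 stood highest, at 35.9 ± 1.37 CPM per kb in NP and 48.9 ± 1.44 CPM per kb in PBS (SD, n = 3 each), above 92.1% of the genes tested. P2rx4 followed with 28.7 ± 0.531 in NP and 26.4 ± 1.51 in PBS. P2ry2 had 11.4 ± 0.411 CPM per kb in NP and 8.29 ± 0.414 in PBS, and P2rx7 had 6.50 ± 0.179 in NP and 7.73 ± 0.160 in PBS. These 4 kept the same order in both groups, and the libraries of neighbours in that order did not overlap.

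Adora2b had 2.40 ± 0.254 CPM per kb in NP and 3.43 ± 0.304 in PBS, and Entpd1 had 1.86 ± 0.164 in NP and 2.23 ± 0.353 in PBS. P2ry12 held 0.397 ± 0.101 CPM per kb in NP and 1.45 ± 0.141 in PBS. P2ry13 had 0.141 ± 0.0488 in NP and 0.419 ± 0.192 in PBS, and P2ry14 had 0.114 ± 0.00329 in NP and 0.209 ± 0.0251 in PBS. In NP, but not in PBS, the library values of P2ry13 and P2ry14 per kb overlapped. Nt5e was the lowest, at 0.0356 ± 0.00171 CPM per kb in NP and 0.0622 ± 0.0119 in PBS, in the lowest 2% of the genes tested. The order depends on the lengths used: P2ry14 was divided by 11059 bases and P2ry13 by 2528. By CPM alone P2ry14 stood above P2ry13, at 1.27 against 0.357 in NP and 2.31 against 1.06 in PBS.

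**Figure D2:**
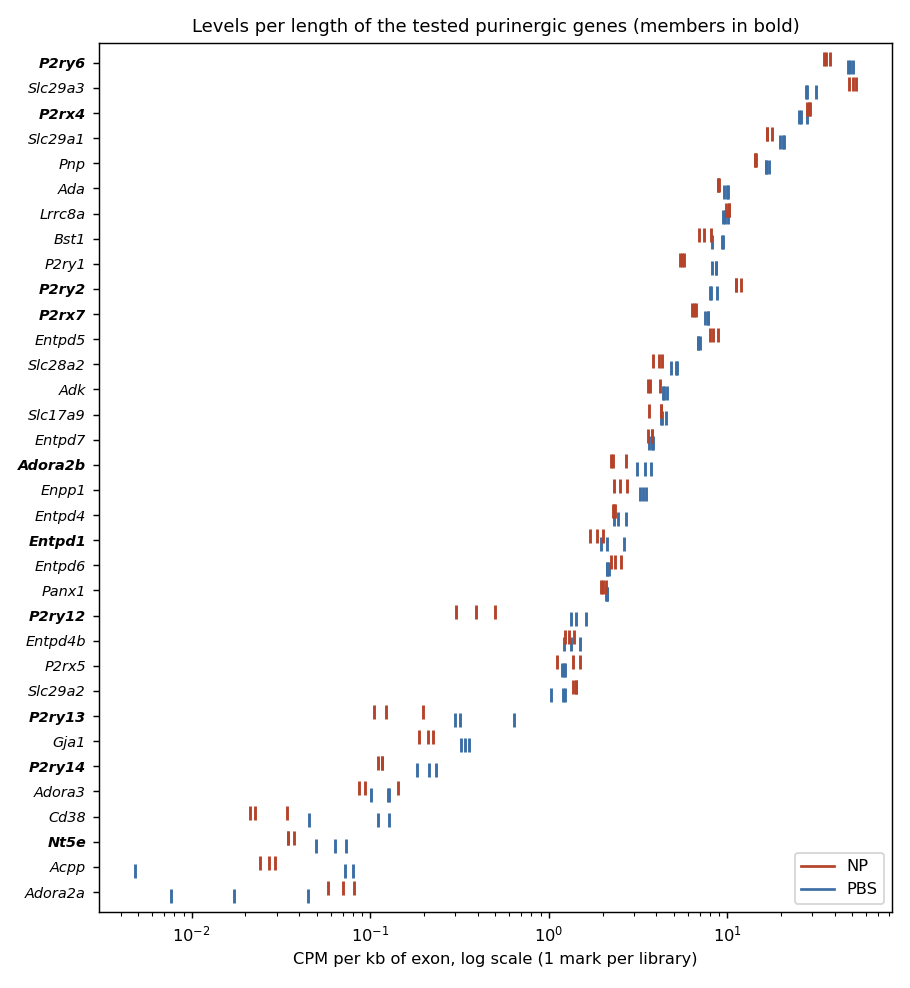
Level of each tested purinergic gene in CPM per kb of exon on a log axis, 1 mark per library, NP in red above PBS in blue, ordered by the PBS mean. The 10 followed genes, in bold, run from P2ry6 at 48.9 CPM per kb to Nt5e at 0.0622 CPM per kb in PBS.

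The ATP-gated channels P2rx4 and P2rx7 lie next to each other on chromosome 5 and moved in opposite directions. P2rx7 (GRCm38 chr5:122643911-122691432, plus strand) encodes the channel that opens at high extracellular ATP and is known for driving the NLRP3 inflammasome. It had 37.8, 39.9 and 38.8 CPM in NP 1 to 3, against 46.8, 46.5 and 45.0 CPM in PBS 1 to 3. Every NP library was below every PBS library, and P2rx7 was lower in NP by a log2 fold change of -0.25 (SE 0.04, adjusted p = 0.000644).

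P2rx4 (chr5:122707544-122729738, plus strand) encodes the more ATP-sensitive channel, much of which sits in the membranes of lysosomes. It had 198, 205 and 202 CPM in NP 1 to 3, against 182, 176 and 197 CPM in PBS 1 to 3. The lowest NP library lay just above the highest PBS library. The log2 fold change was 0.12 (SE 0.04, adjusted p = 0.0422), and the gene passed under 7 of 16 other settings; among those where it did not were the fit without TMM factors (adjusted p = 0.112) and the fits without PBS 1 (0.0904), without PBS 2 (0.174), or without NP 1 (0.0596), NP 2 (0.0930) or NP 3 (0.121).

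The ratio of P2rx4 to P2rx7 within a library was 5.23, 5.14 and 5.20 in NP 1 to 3 and 3.90, 3.79 and 4.37 in PBS 1 to 3. The log2 ratio was higher in NP libraries by 0.37, with no overlap (two-sided exact permutation test, p = 0.1, the smallest that 3 against 3 libraries can give). In this way 6 ratios were tested, the sixth of which rests on Adora2a and is not given for the reason stated at that gene, and Benjamini-Hochberg adjustment over the 6 brought each p of 0.1 to 0.12. The genes are 16111 bases apart, on the same strand and with no shared exon, and the microRNA gene Mir8115, whose 119 bases lie in an exon of P2rx7, had 0 counts in every library.

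P2ry2 and P2ry6 are neighbours on the minus strand of chromosome 7, 21918 bases apart, and they too moved apart. P2ry2 (chr7:100996568-101012866) encodes the receptor for ATP and UTP that in phagocytes is known for directing cells toward nucleotides from dying cells. It had 46.6, 44.0 and 43.7 CPM in NP 1 to 3, against 31.4, 31.8 and 34.4 CPM in PBS 1 to 3. All NP libraries were above all PBS libraries, and P2ry2 was 1.38-fold higher in NP, a log2 fold change of 0.46 (SE 0.05, adjusted p = 8.59e-05).

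P2ry6 (chr7:100937630-100974649) encodes the UDP receptor, known in microglia for promoting phagocytosis. It had 100, 108 and 103 CPM in NP 1 to 3, against 146, 137 and 141 CPM in PBS 1 to 3. The NP libraries all lay below the PBS libraries, and P2ry6 was lower in NP by a log2 fold change of -0.45 (SE 0.04, adjusted p = 3.75e-05). The ratio of P2ry6 to P2ry2 was 2.14, 2.45 and 2.37 in NP 1 to 3, against 4.63, 4.32 and 4.10 in PBS 1 to 3. The log2 ratio differed by -0.90 with no overlap between groups (exact permutation p = 0.1, 0.12 adjusted over the 6 ratios). The annotated gene Gm44545, on the plus strand inside the span of P2ry6 but outside its exons, had at most 4 counts in any library.

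P2ry12, P2ry13 and P2ry14 are 3 receptors of 1 sequence subfamily, coupled to inhibitory G proteins, on the minus strand of chromosome 3. P2ry12 (chr3:59216272-59262871) encodes the ADP receptor of platelets and microglia, on which it is a marker of the resting state and steers processes toward injury. P2ry13 (chr3:59207892-59210882) encodes a second ADP receptor, and P2ry14 (chr3:59113855-59153618) encodes the receptor for UDP-glucose and other UDP-sugars. P2ry13 lies 5389 bases from P2ry12, and P2ry14 lies 54273 bases from P2ry13.

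The stretch before the start of each of these genes is shown because the 3 neighbours fell together, with that of P2ry2 beside them as the P2Y gene that rose. Each is the 250 bases before the RefSeq start on GRCm38.p6, 5′ to 3′ on the gene's own minus strand, at chr3:59262986-59263235 for P2ry12, chr3:59210883-59211132 for P2ry13, chr3:59153493-59153742 for P2ry14 and chr7:101012054-101012303 for P2ry2. Capitals mark matches to the motifs searched, and RefSeq starts can differ from those of GENCODE.
P2ry12: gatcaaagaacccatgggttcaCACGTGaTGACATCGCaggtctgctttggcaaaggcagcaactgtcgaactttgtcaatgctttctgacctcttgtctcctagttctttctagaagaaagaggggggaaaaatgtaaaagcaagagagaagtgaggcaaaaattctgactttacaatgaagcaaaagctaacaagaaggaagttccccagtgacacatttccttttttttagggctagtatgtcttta
P2ry13: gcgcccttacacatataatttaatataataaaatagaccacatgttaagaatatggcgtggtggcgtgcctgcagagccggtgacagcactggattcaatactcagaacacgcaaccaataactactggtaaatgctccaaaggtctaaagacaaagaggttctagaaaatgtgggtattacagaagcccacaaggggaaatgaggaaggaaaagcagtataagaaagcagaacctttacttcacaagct
P2ry14: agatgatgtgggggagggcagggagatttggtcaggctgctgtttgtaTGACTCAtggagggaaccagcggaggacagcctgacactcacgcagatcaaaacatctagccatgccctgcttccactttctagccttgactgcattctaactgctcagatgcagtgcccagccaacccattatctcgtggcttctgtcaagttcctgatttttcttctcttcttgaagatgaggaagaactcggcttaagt
P2ry2: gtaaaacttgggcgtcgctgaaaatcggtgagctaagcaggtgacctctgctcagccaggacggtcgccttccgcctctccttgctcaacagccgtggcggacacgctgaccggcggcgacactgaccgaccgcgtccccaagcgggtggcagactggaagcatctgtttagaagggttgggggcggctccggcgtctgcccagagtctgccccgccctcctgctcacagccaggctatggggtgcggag

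RefSeq promoters were found for 9 of the 10 genes, all but P2ry6, and were searched on both strands for 8 motifs. In P2ry12 the E-box CACGTG began at position -228, counted back from the start, and 6.04% of 27025 promoters held one. That match also contains, on both strands, the hypoxia response core ACGTG, which 16.5% of promoters held. Next to it, at -221, stood TGACATCGC, a match to the NRF2 motif TGACNNNGC held by 10.1% of promoters. P2ry14 had TGACTCA at -202, a match to the AP-1 motif TGANTCA held by 6.85%. P2ry13 and P2ry2 had no match in this window. P2rx4 had an NRF2 motif match at -151, and P2rx7 had an AP-1 match at -249 and an NRF2 match at -88. Adora2b, Entpd1 and Nt5e had none. The other motifs searched were TTC and GAA 4 bases apart for STAT factors, held by 5.88% of promoters, GAGGAAGT for PU.1 by 2.42%, 2 copies of GAAA with 2 bases between for interferon response by 3.05%, and TATAAA by 13%, and no member held any of these. The P2ry12 and P2ry13 stretches were 41.6% G and C with 3 and 5 CG dinucleotides, that of P2ry14 was 50% with 4, and that of P2ry2 was 65.2% with 21, against medians of 52% and 6 over all promoters.

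P2ry12 had 0.765, 1.28 and 0.992 CPM in NP 1 to 3, against 3.39, 3.61 and 4.09 CPM in PBS 1 to 3, which were 52, 77 and 60 counts in NP and 193, 154 and 210 counts in PBS. The highest NP library was well below the lowest PBS library. P2ry12 was 0.268 times its PBS level in NP, a log2 fold change of -1.90 (SE 0.18, adjusted p = 6.84e-05), and it passed under all 16 other settings, with log2 fold changes between -2.09 and -1.69.

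P2ry14 had 1.28, 1.29 and 1.22 CPM in NP 1 to 3, against 2.02, 2.34 and 2.57 CPM in PBS 1 to 3. The NP libraries lay close together and below all PBS libraries, from 74 to 87 counts in NP and 100 to 132 counts in PBS. Its log2 fold change was -0.85 (SE 0.14, adjusted p = 0.00140), again past the threshold under all 16 other settings.

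P2ry13 had 0.309, 0.497 and 0.265 CPM in NP 1 to 3, against 0.808, 0.75 and 1.62 CPM in PBS 1 to 3, from 16 to 30 counts in NP and 32 to 83 counts in PBS. The groups did not overlap, but PBS 3 held 2.08 times the mean of PBS 1 and PBS 2. P2ry13 was lower in NP by a log2 fold change of -1.53 (SE 0.37, adjusted p = 0.00884). Without PBS 3 it was -1.17 and still passed, whereas it did not pass without NP 1 (adjusted p = 0.104), without NP 2 (0.0507), without NP 3 (0.106) or with PBS 1 alone in its group (0.0617).

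The proportions among the 3 genes were compared within each library. P2ry14 had 1.67, 1.01 and 1.23 times the CPM of P2ry12 in NP 1 to 3, and 0.596, 0.649 and 0.629 times in PBS 1 to 3. With 0.5 CPM added to each value, the log2 ratio was higher in NP by 0.82 (exact permutation p = 0.1, 0.12 adjusted). P2ry13 had 0.404, 0.390 and 0.267 times the CPM of P2ry12 in NP 1 to 3, against 0.238, 0.208 and 0.395 times in PBS 1 to 3. Those raw ratios overlapped, and the log2 difference of 0.65 with 0.5 CPM added (exact permutation p = 0.1) became 0.38 when 0.5 was added to counts instead (p = 0.3).

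All 3 genes lie within the span of Med12l, a Mediator subunit gene on the plus strand, which shares 9 exonic bases with P2ry12 and none with the other two. Med12l had 35, 27 and 30 counts in NP 1 to 3, against 29, 22 and 29 counts in PBS 1 to 3. Its NP and PBS levels overlapped, with a log2 fold change of -0.13 (SE 0.21, adjusted p = 0.660). Gpr171, another receptor gene in this stretch, with 6 to 13 counts in NP and 6 to 15 in PBS, had a log2 fold change of -0.62 (adjusted p = 0.229). Within 100 kb of any of the 10 genes stood 46 other annotated genes, of which 24 were tested. Of these 24, 5 were higher and 6 lower in NP, 45.8% called against 41.2% of all genes tested.

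**Figure D3:**
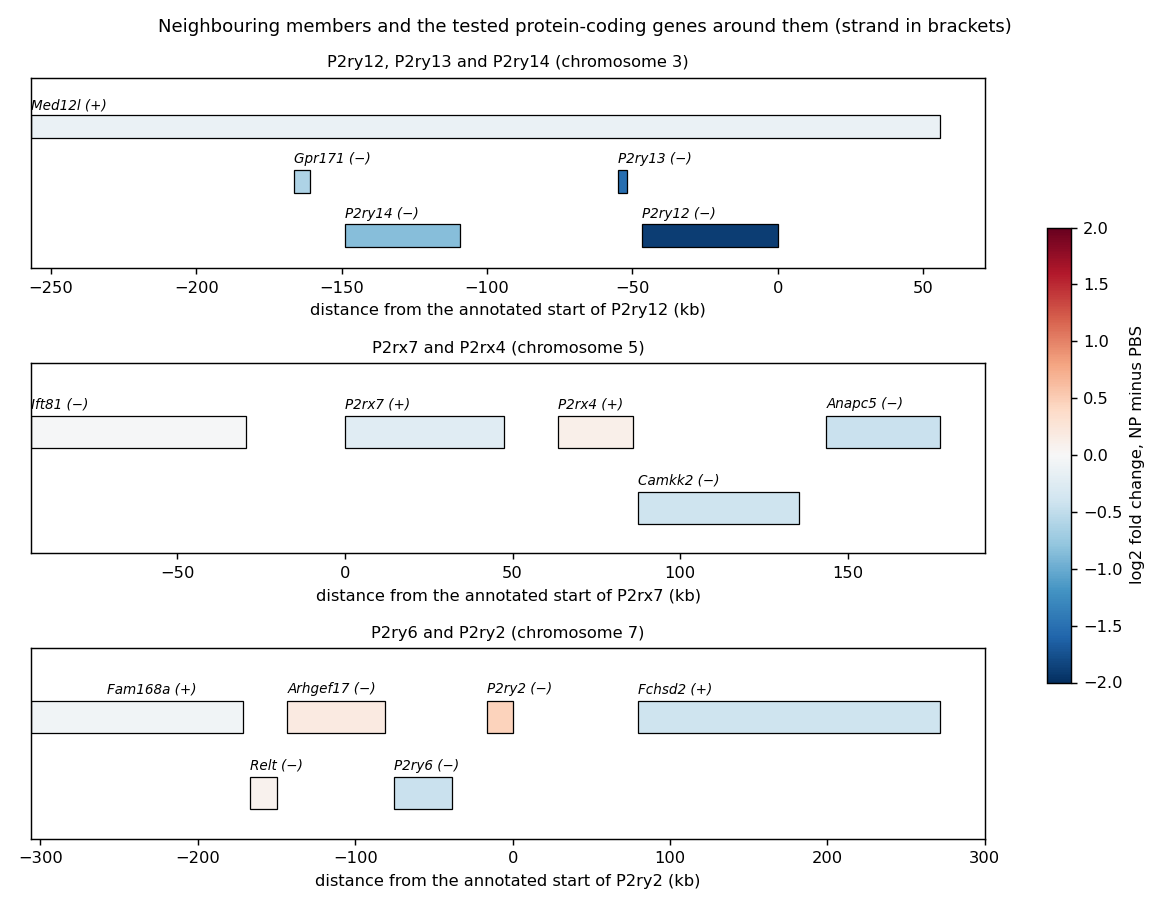
Tested protein-coding genes around the 3 groups of neighbouring receptor genes, drawn to scale as distance in kb from the annotated start of P2ry12, P2rx7 and P2ry2. Colour gives the log2 fold change, NP minus PBS, with blue for lower in NP and red for higher. P2ry12, P2ry13 and P2ry14 are blue within the pale span of Med12l, while P2ry2 is red beside a blue P2ry6.

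Summed per kb of exon, the 6 tested P2Y genes, which add P2ry1 to the 5 named so far, came to 52.8, 54.9 and 53.0 CPM per kb in NP 1 to 3 and to 69, 65.8 and 68.7 CPM per kb in PBS 1 to 3. P2ry6 made up 65.6, 68.1 and 67.4% of the sum in NP and 73.1, 72.3 and 71.1% in PBS. P2ry2 made up 22.5, 20.4 and 21% in NP and 11.6, 12.3 and 12.8% in PBS. The UDP receptor was thus the main P2Y transcript in every library, and the ATP and UTP receptor held a larger share in each NP library than in any PBS library. P2ry12 took 0.569, 0.914 and 0.735% of the sum in NP and 1.93, 2.16 and 2.34% in PBS. These shares were not tested, and shares of 1 sum are not independent of each other.

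**Figure D4:**
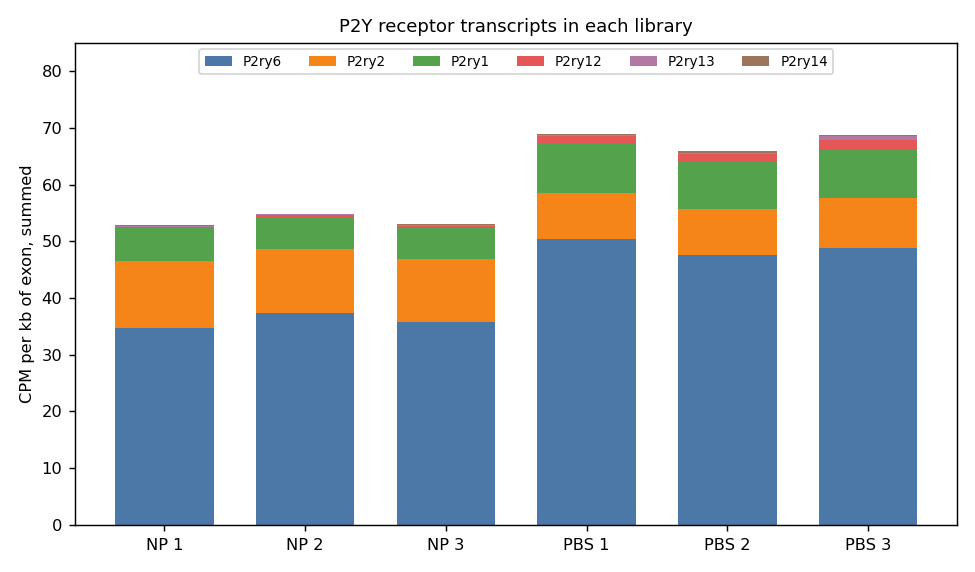
Stacked CPM per kb of exon of the 6 tested P2Y receptor genes in each library, NP libraries left of PBS libraries. The NP sums run from 52.8 to 54.9 and the PBS sums from 65.8 to 69, with a taller P2ry2 section in NP and a taller P2ry6 section in PBS.

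Among the adenosine-side genes, Adora2b and Nt5e were lower in NP and Entpd1 was not called. Adora2b (chr11:62248984-62266453, plus strand) encodes the low-affinity adenosine receptor, which couples to cyclic AMP production. It had 4.10, 4.97 and 4.23 CPM in NP 1 to 3, against 6.87, 6.35 and 5.75 CPM in PBS 1 to 3. The groups did not overlap, and Adora2b was lower in NP by a log2 fold change of -0.52 (SE 0.10, adjusted p = 0.00344), past the threshold under all 16 other settings.

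Entpd1 (chr19:40612366-40741602, plus strand), the gene of CD39, had 9.44, 11.3 and 10.4 CPM in NP 1 to 3, against 10.9, 11.8 and 14.7 CPM in PBS 1 to 3. NP 2 lay above PBS 1, and PBS 3 was the highest. The log2 fold change was -0.26 with a 95% interval from -0.51 to -0.01 (adjusted p = 0.0890). It was -0.13 without PBS 3, and it passed without PBS 1 (-0.35, adjusted p = 0.0416). The processed pseudogenes Gm8783 and Gm16027 and the intronic transcript AC166063.1 lie within its span and share no exonic base with it. Gm8783 had 69 to 95 counts in NP and 35 to 53 counts in PBS. It was called higher in NP (log2 fold change 0.65, SE 0.23, adjusted p = 0.0459), although its CPM overlapped between the groups. Gm15801, another processed pseudogene near Entpd1, had 30, 23 and 0 counts in NP 1 to 3, against 41, 0 and 35 in PBS 1 to 3. In PBS 1 and PBS 3 Gm8783 had the same counts, 41 and 35. Whether reads were divided between these pseudogenes was not tested, so the Gm8783 call is uncertain. Gm16027 had at most 1 count in any library, and AC166063.1 had 0 in every library.

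Nt5e (chr9:88327197-88372092, plus strand), the gene of CD73, had 0.324, 0.298 and 0.298 CPM in NP 1 to 3, against 0.544, 0.633 and 0.429 CPM in PBS 1 to 3. The values came from 18 to 22 counts in NP and 22 to 31 counts in PBS and did not overlap between the groups. The log2 fold change was -0.77 (SE 0.25, adjusted p = 0.0319), and the gene passed under 6 of 15 other settings. It did not pass without NP 1 (adjusted p = 0.189), NP 2 (0.194), NP 3 (0.208), PBS 1 (0.0774) or PBS 2 (0.0939), nor with no low-count filter (0.105).

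The ratio of Entpd1 to Nt5e was 29.2, 37.8 and 34.9 in NP 1 to 3, against 20.0, 18.6 and 34.2 in PBS 1 to 3. NP 1 lay below PBS 3, so the groups overlapped, and the log2 ratio with 0.5 CPM added differed by 0.11 (exact permutation p = 0.7). With 0.5 added to counts it was 0.52 (exact permutation p = 0.2), and without PBS 2 and NP 2 it was -0.06.

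The 10 genes also differed from one another in how the libraries of 1 group lay. PBS 3 was the highest PBS library for 6 of the 10, PBS 1 for 3 and PBS 2 for 1. In 8 of the 10 genes NP 2 lay nearer to the PBS libraries than the mean of NP 1 and NP 3 did. On the first principal component, which is not limited to these genes, NP 2 was also nearest to PBS. It stood at 13.5, against 25.3 for NP 1, 19.3 for NP 3 and -20.7 to -18.2 in PBS. The shares of all genes with these orders of libraries were not counted, so the orders are not given as a trait of the 10 genes. P2ry13 had the widest spread of log2 CPM in both groups, with an SD of 0.47 in NP and 0.61 in PBS, and P2rx4 had the narrowest in NP, 0.03.

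A further 40 genes of the same pathway were read from the same fit: the other receptors, enzymes of the cell surface, intracellular nucleotide-hydrolysing enzymes, genes of adenosine uptake and breakdown, and genes of nucleotide release. Of the 24 tested, 4 were higher, 10 were lower and 10 were not called, against 41.2% called over all genes tested, with a median log2 fold change of -0.12. Adora2a and Cd38 are among those called, although each passed the filter only through the group in which it was higher, which favours a call. Below the filter were the other 16: P2rx1, P2rx2, P2rx3, P2rx6, P2ry4, Adora1, Entpd2, Entpd3, Entpd8, Enpp3, Alpl, Slc29a4, Slc28a1, Slc28a3, Panx2 and Panx3.

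Of the other receptors, P2ry1, the ADP receptor coupled to calcium release, had 24.7, 23.5 and 23.8 CPM in NP 1 to 3, against 37.3, 35.2 and 37.0 CPM in PBS 1 to 3. The groups stood clearly apart, and P2ry1 was lower in NP by a log2 fold change of -0.61 (SE 0.04, adjusted p = 1.59e-05). With P2ry12 and P2ry13, all 3 ADP receptors were lower in NP, and 5 of the 6 tested P2Y genes were, against 21.4% of all genes tested. Of these, P2ry13 did not pass when any 1 NP library was left out. Adora2a, the high-affinity adenosine receptor, had 0.176, 0.215 and 0.248 CPM in NP 1 to 3, against 0.0527, 0.0235 and 0.136 CPM in PBS 1 to 3. These were 40 counts in the NP group and 11 in the PBS group. All PBS values lay below the filter of 0.171 CPM, so Adora2a was tested only because of its NP libraries, and its values are given as a description, without its test or its ratio to Adora2b. P2rx5 and Adora3 were not called.

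Of the 4 other surface enzymes tested, 3 were lower in NP, against 21.4% of all genes tested, and 1 of these 3, Cd38, passed the filter through PBS alone. Enpp1, which splits ATP into AMP and pyrophosphate, had 28.0, 23.9 and 25.7 CPM in NP 1 to 3, against 36.0, 33.3 and 34.8 CPM in PBS 1 to 3. All NP libraries were below the PBS libraries (log2 fold change -0.42, adjusted p = 0.000483). Bst1, an NAD-consuming ectoenzyme, had a log2 fold change of -0.26 (adjusted p = 0.0126), and did not pass without NP 1, NP 3 or PBS 1. Cd38, the main NAD glycohydrolase of the cell surface, had 0.0882, 0.0829 and 0.132 CPM in NP 1 to 3, against 0.176, 0.492 and 0.429 CPM in PBS 1 to 3. It was low throughout, and all NP values lay below the filter of 0.171 CPM, so they are given as a description, without the test. The higher PBS values were in PBS 2 and PBS 3, the libraries with 138 and 153 CPM of olfactory and vomeronasal receptor RNA. The part of that difference between libraries was not tested. Acpp, the acid phosphatase that also hydrolyses AMP, was not called, at 0.176 to 0.215 CPM in NP. It had 0.0351, 0.586 and 0.526 CPM in PBS 1 to 3, so its PBS libraries were split in the same way. Its direction turned under 6 of 15 other settings, and it was called under 1 of them, without PBS 1.

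Of the intracellular enzymes, Entpd5, the UDPase of the endoplasmic reticulum, was higher in NP at 50.8 ± 2.61 CPM, against 41.8 ± 0.774 CPM in PBS (SD, n = 3 each; log2 fold change 0.28, adjusted p = 0.000879). Entpd4, Entpd4b, Entpd6 and Entpd7 were not called, and Entpd4 and Entpd4b are near-identical copies, so their counts are uncertain.

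All 7 tested genes of adenosine uptake and breakdown were called, against 41.2% of all genes tested, and 3 of them, Slc29a2, Ada and Adk, lost the call under several other settings. Slc29a3, the nucleoside transporter of lysosomes, had 308, 280 and 296 CPM in NP 1 to 3, against 160, 163 and 184 CPM in PBS 1 to 3. It was 1.75-fold higher in NP, with no overlap (log2 fold change 0.81, SE 0.06, adjusted p = 1.70e-05). The plasma membrane transporters were split: Slc29a1 was lower (log2 fold change -0.25, adjusted p = 0.000740), Slc28a2, which takes up purine nucleosides with sodium, was lower (-0.32, adjusted p = 0.00199), and Slc29a2 was higher (0.29, adjusted p = 0.0447, called under 6 of 16 other settings). Slc29a2 did not pass when any 1 library other than PBS 1 was left out. The enzymes that clear adenosine and its products were all lower, by small amounts. Adk, which phosphorylates adenosine, had a log2 fold change of -0.23 (adjusted p = 0.0107), and did not pass without NP 1 or NP 3. Ada, which deaminates it, had -0.15 (adjusted p = 0.0232), and did not pass without NP 1, NP 3, PBS 1 or PBS 3. Pnp, which cleaves inosine, had -0.22 (adjusted p = 0.000629), and the mouse genome holds a near-identical copy of it, so that value is uncertain.

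Of the genes of nucleotide release, Gja1, the connexin 43 gene, had 1.91, 2.17 and 2.32 CPM in NP 1 to 3, against 3.32, 3.49 and 3.64 CPM in PBS 1 to 3. Every NP library was below every PBS library (log2 fold change -0.71, SE 0.11, adjusted p = 0.00103). Panx1, Slc17a9 and Lrrc8a were not called.

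**Figure D5:**
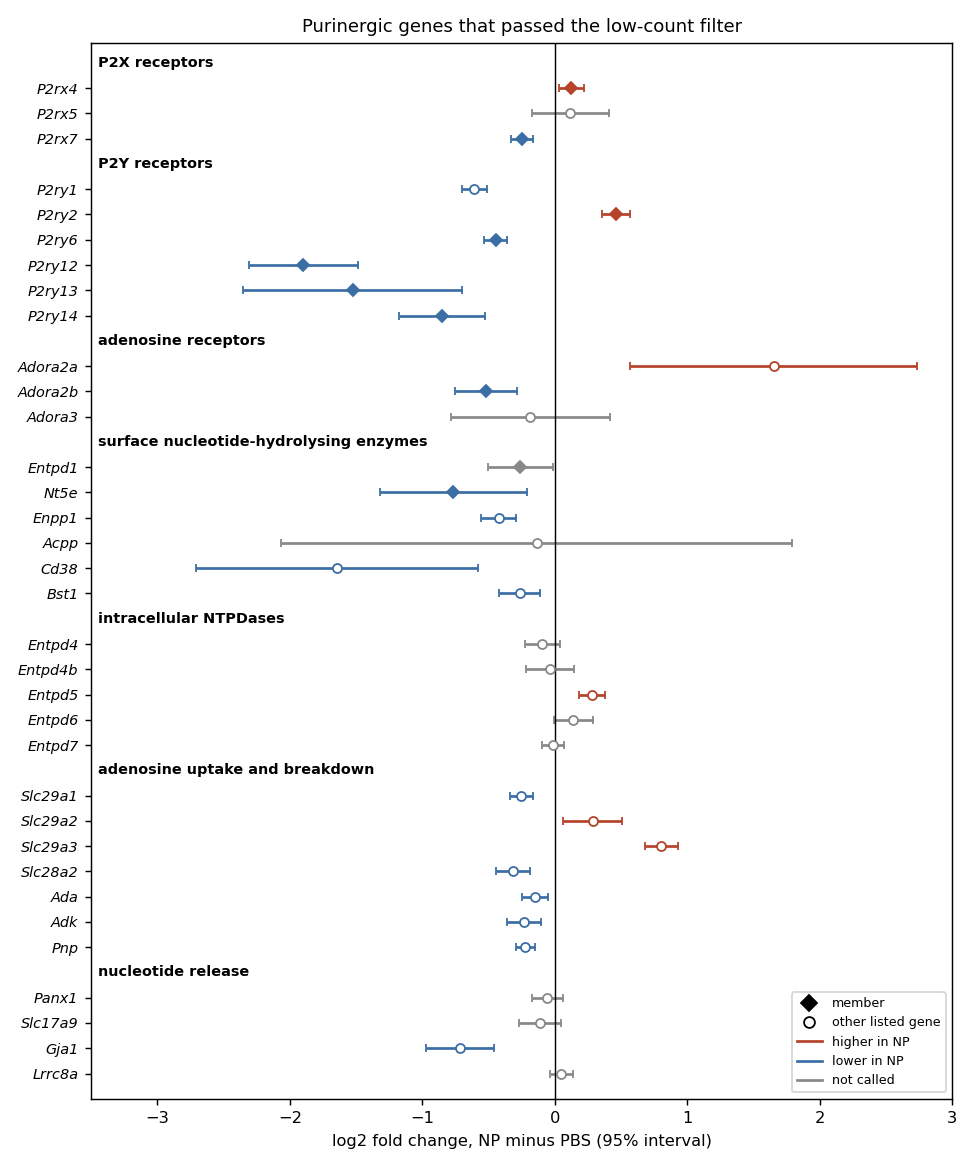
Log2 fold change, NP minus PBS, with its 95% interval for each tested purinergic gene, grouped by role. Filled diamonds are the 10 followed genes and open circles the other 24, in red for higher in NP, blue for lower and grey for not called. Adora2a and Cd38 passed the low-count filter through 1 group only. The P2Y receptors other than P2ry2 all lie left of 0, from -0.45 for P2ry6 to -1.90 for P2ry12.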

How the data were processed

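Polyadenylated RNA from 3 NP and 3 PBS samples was read as 151 bp pairs, per the labels' protocols. The authors deposited expected counts per gene, estimates that here were whole numbers, unscaled for depth. RSEM 1.3.3, STAR 2.7.8a, cutadapt 2.3, MultiQC 1.7, FastQC 0.11.8 and the build GRCm38 are listed without roles, per the submitters' processing notes. For the annotation release and the strand setting, both not given in the sources used here, nothing was assumed, so reads of genes that overlap cannot be assigned to 1 of them. Of 55491 rows, 4 reporter constructs with 0 counts were removed. GENCODE M21 held 55227 of the 55487 genes left and is the source of the coordinates and exonic lengths on GRCm38, and 27851 genes had 0 counts in every library. The 3-count limits cover counting error only, whereas the 95% intervals of log2 fold changes come from the spread between libraries.

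Each gene was tested with limma voom (limma 3.58.1, R 4.3.3) with the group as its only term, 4 residual degrees of freedom and TMM factors of 0.979 to 1.02. The filter asked for at least 0.171 CPM, 10 counts at the median depth, in 3 libraries and 15 counts in total, which left 14478 genes. Log2 fold changes are NP minus PBS, with Benjamini-Hochberg adjustment over those genes. edgeR and DESeq2 were not run, because the layout of the table kept the automatic unit check from reading its columns. TMM and the filter were written out after their published definitions, and the fit was tested on simulated data. Ratios within a library were compared by a two-sided exact permutation test on log2 values with 0.5 CPM added. No pair of libraries of 1 group agreed within sampling noise (chi-square per gene 4.92 to 19.6).

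The 10 genes and the pathway and marker lists were chosen with earlier results of these data known. All 10 genes are named whatever their result, as is each other listed gene that was called, each listed gene below the filter, and each annotated gene that overlaps one of the 10. Further genes named, among them those listed as not called, Gpr171 and Gm15801, were chosen after their values were seen.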

Additional observations from a re-analysis of the deposited data

How the results depend on the processing

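Under 16 other settings, P2rx7, P2ry2, P2ry6, P2ry12, P2ry14 and Adora2b kept their direction and their call, and no member changed direction. P2rx4 passed in 7 of 16, P2ry13 in 11 of 15, Nt5e in 6 of 15 and Entpd1 in 1 of 16. P2ry13 and Nt5e were not tested under the filter of 1 CPM in 3 libraries. With 9 members called, between 6 and 9 were called when 1 library was left out, and 6 with PBS 1 alone in its group, where it is taken to vary like the NP libraries. The other purinergic genes called, 14 in all, numbered 9 with no low-count filter, 9 with PBS 1 alone, and 8 (without NP 3) to 12 when 1 library was left out; without NP 1 there were 9. Over all genes, 2872 higher and 3092 lower became 1197 and 1775 with PBS 1 alone. Leaving out 1 library gave 1975 (without NP 3) to 3850 (without PBS 1) lower genes and 2102 to 2971 higher genes. These settings hold fewer libraries or test other genes, and any further cause was not tested. The log2 ratio of Entpd1 to Nt5e turned from 0.11 to -0.06 without PBS 2 and NP 2, and ran from 0.01 to 0.30 when 1 library was left out.

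The replicate numbers were not shown to pair the samples: deviations from the group means correlated at -0.014, -0.124 and -0.141 between same-numbered samples. With the replicate number as a block, 7 members and 5022 genes were called. P2rx4 (adjusted p = 0.0669) and Nt5e (0.0595) did not pass. Without TMM factors the median log2 fold change of all genes was -0.038, and without the filter -0.086. Depth limits Nt5e, P2ry13, Adora2a, Adora3, Cd38 and Acpp, each with 83 counts or fewer in every library. The edgeR quasi-likelihood test was planned first, with limma voom as its replacement where the columns could not be read. Neither edgeR nor DESeq2 was run.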
